A study of Mus musculus with 48 samples.

Results

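The genes described here are 7 members of the epidermal growth factor (EGF) family and its receptor circuit, chosen by name: the ligand genes Areg (amphiregulin), Ereg (epiregulin), Hbegf (heparin-binding EGF-like growth factor), Tgfa (transforming growth factor alpha) and Nrg1 (neuregulin 1), the receptor gene Egfr, and Errfi1, which encodes the inhibitor also known as MIG6. They are 7 of the 47480 gene symbols counted, and all 7 passed the filter on low counts in every comparison. The choice was made with earlier results of these data known. Counts of members set beside shares of all genes are therefore a description and not a test of the family. RNA was sequenced from C2C12 cells, an established line of mouse myoblasts that fuse into multinucleated muscle cells when they differentiate. Each of 2 stages, undifferentiated myoblasts and differentiated cells, was stretched on a Flexcell device, which deforms a flexible culture membrane in repeated cycles equally in all directions, for 1 h, for 3 h or for 6 h. Non-stretched cells of the same stage were collected at each time. This gave 12 groups of 4 libraries, 48 in all, with 48447318 to 77080730 counts per library. All groups come from 1 unmodified cell line, so the replicates are cultures and not animals. Whether they were separate cultures within an experiment was not stated in the labels. The study's methods describe separate samples within an experiment, from 2 independent experiments for myoblasts and 3 for differentiated cells. The p-values therefore measure the spread between these libraries, and the main tests of stretch have no term for the experiment.

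EGF family ligands are made as membrane-bound precursors and are cut free by metalloproteases such as ADAM17. Areg, Hbegf, Ereg and Tgfa bind EGFR, and neuregulins bind ERBB3 and ERBB4. Ligand binding pairs the receptors and switches on the ERK kinase cascade, and several ligand genes are themselves transcribed when this cascade is active. Errfi1 is induced by the same cascade and its protein binds the EGFR kinase domain and blocks it, which makes it a feedback inhibitor. In skeletal muscle, EGF family ligands are known for their part in the proliferation of myogenic cells, and neuregulin 1 for its part in muscle spindles and the neuromuscular junction.

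The labels were checked against marker genes first. Of 6 markers of muscle differentiation (Myog, Tmem8c, Ckm, Acta1, Myh3 and Tnnt1; Tmem8c is the older symbol of Mymk), the summed level was 6.66 to 15.9 CPM (counts divided by the scaled library size) in the myoblast libraries and 9858 to 12145 CPM in the differentiated ones. Markers of leukocytes (Ptprc), endothelium (Pecam1) and epithelium (Epcam) summed to at most 0.229 CPM in any library. One library stood apart among those used here. Replicate 4 of stretched differentiated cells at 1 h is the sole library of its experiment, and it had the highest level of Areg, Ereg, Hbegf, Nrg1, Egfr and Errfi1 in its group. Its summed level of the differentiation markers, 10810 CPM, lay within the range of the other 3 libraries of the group. Results that rest on it are given with and without it. Myoblasts came from an experiment with replicates 7 and 8 and another with replicates 9 and 10, and the differentiated cells from a different pair of experiments split in the same way.

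Ereg and Areg are neighbours. In mm10 (GENCODE vM21), Ereg lies at chr5:91074622-91093646 and Areg at chr5:91139599-91148432, both on the plus strand, 46.0 kb apart and with 0 protein-coding genes between them. Epgn, another EGF family ligand gene, starts the row 39.4 kb before Ereg, and Btc follows 209 kb after Areg on the other strand. Tgfa lies at chr6:86195223-86275719 (plus strand), Nrg1 at chr8:31814551-32884029 (minus strand), Egfr at chr11:16752203-16918158 (plus strand) and Errfi1 at chr4:150853919-150868892 (plus strand). At most 0.852% of the 31-base stretches of a member's transcripts occur in other genes, the highest share being that of Egfr. Noncoding transcripts on the opposite strand overlap Ereg, Egfr, Errfi1, Tgfa and Nrg1, and the libraries were made with a stranded method.

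The promoter sequences of Areg and Errfi1 are shown because these members have a response element in the window searched. They are the 250 bases before an annotated start, taken from RefSeq (GRCm38.p6, the assembly of mm10). Windows of 4 of the 7 members were searched (Areg, Errfi1, Tgfa and Egfr). Those of Hbegf, Ereg and Nrg1 were not searched. Capitals mark matches, on either strand, to the motifs searched: the cyclic AMP response element (TGACGTCA), the AP-1 motif (TGANTCA), the EGR motif (GCGNGGGCG), the TEAD motif (GGAATG) and the CArG box. None of these motifs overlaps another in the sequences shown.
Areg (chr5:91139349-91139598, plus strand): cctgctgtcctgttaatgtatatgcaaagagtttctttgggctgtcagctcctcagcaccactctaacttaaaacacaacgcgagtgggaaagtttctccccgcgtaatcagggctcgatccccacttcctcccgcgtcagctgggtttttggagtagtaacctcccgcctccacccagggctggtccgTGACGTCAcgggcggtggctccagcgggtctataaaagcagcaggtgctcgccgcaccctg
Errfi1, upstream start (chr4:150853546-150853795, plus strand): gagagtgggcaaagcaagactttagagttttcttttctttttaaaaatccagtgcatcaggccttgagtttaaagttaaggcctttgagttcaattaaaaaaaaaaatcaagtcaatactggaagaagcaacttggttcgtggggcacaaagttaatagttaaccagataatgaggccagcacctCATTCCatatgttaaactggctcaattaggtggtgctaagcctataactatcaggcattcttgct
Errfi1, downstream start (chr4:150854820-150855069, plus strand): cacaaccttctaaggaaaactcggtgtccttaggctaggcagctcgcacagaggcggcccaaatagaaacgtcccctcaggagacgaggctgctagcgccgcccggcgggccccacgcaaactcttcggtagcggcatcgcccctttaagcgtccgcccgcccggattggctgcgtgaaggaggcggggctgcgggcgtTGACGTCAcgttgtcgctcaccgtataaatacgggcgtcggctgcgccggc
The cyclic AMP response element begins 61 bases before the Areg start and 51 bases before the downstream start of Errfi1, a window that lies in the first intron of the longer Errfi1 transcript. Of 32851 promoter windows of the same length, 1.55% hold this element. The upstream Errfi1 window holds a TEAD motif on the minus strand, 65 bases before the start, which 12.6% of windows hold. The AP-1 motif, the CArG box and the EGR motif, held by 6.75%, 1.47% and 4.70% of windows, were found in none of the 5 member windows searched. The Tgfa and Egfr windows held none of the motifs. These matches describe the letters of the windows and were not tested for binding.

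Before stretch is considered, the members differed strongly between the stages. Levels per kilobase of exon, which allow genes to be compared, were highest for Errfi1 in both stages (mean ± SD of 12 non-stretched libraries, 85.3 ± 3.42 CPM per kb in myoblasts, 27.9 ± 3.00 in differentiated cells). The myoblast order after Errfi1 was Areg (24.9 ± 2.02 CPM per kb), Ereg (13.3 ± 1.22), Hbegf (9.68 ± 0.632), Nrg1 (1.71 ± 0.107), Egfr (1.32 ± 0.0819) and Tgfa (0.379 ± 0.0491), and no 2 neighbours in this order overlapped in their libraries. In differentiated cells it was Hbegf (4.79 ± 0.483 CPM per kb), Ereg (3.74 ± 0.457), Egfr (2.96 ± 0.308), Nrg1 (1.12 ± 0.146), Areg (1.08 ± 0.190) and Tgfa (0.0844 ± 0.0222). There the libraries of Hbegf and Ereg, of Ereg and Egfr, and of Nrg1 and Areg overlapped. The exon length joins all annotated transcripts of a gene, so a gene with many isoforms, such as Nrg1, has a level per kilobase that depends on which of them the cells make.

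All 7 members were called different between non-stretched differentiated cells and non-stretched myoblasts by the quasi-likelihood test of edgeR. A call required an adjusted p-value (Benjamini-Hochberg) below 0.05 together with a fold limit, a log2 difference of 0.58 or more up or down. The background is high here, since 52.0% of the 16582 genes tested were called (27.1% up and 24.9% down). Areg fell most, from 30.3 ± 2.46 CPM in myoblasts to 1.31 ± 0.231 CPM in differentiated cells (n = 12 each), a log2 difference of -4.56 (SE 0.0550, edgeR adjusted p = 1.76e-30). Tgfa (-2.18), Ereg (-1.86), Errfi1 (-1.65), Hbegf (-1.05) and Nrg1 (-0.63) were also lower in differentiated cells. Egfr alone of the 7 was higher, at 33.6 ± 3.49 CPM against 15.0 ± 0.928 CPM (log2 difference 1.14, SE 0.0483, edgeR adjusted p = 3.73e-18). For each member the 12 libraries of one stage lay entirely on one side of those of the other. The share of all genes separated in this way is not given. The adjusted p-value alone was passed by 14823 of the 16582 genes, so separation is not particular to the members. Among the partner receptors, Erbb3 differed more than any member other than Areg, with 337 CPM in differentiated cells and 19.5 CPM in myoblasts (log2 difference 4.08), and Erbb2 also differed (1.45). Erbb4 was not tested, as its mean was at most 0.00257 CPM in either stage. Of 33 pathway genes that are not members, 7 were called higher in differentiated cells and 3 lower. Beside both receptors, those higher included the ligand gene Epgn (0.96), Rhbdf1 (0.60), whose product takes part in ligand release, Lrig2 (0.83) and Gab1 (1.01), and those lower were the ligand gene Btc (-3.63) and the attenuators Socs5 (-0.75) and Ptprj (-1.01). Of the other ligands tested, Egf (0.20) and Nrg4 (-0.08) were not called. The stages were grown in different experiments and counted in separate tables, so stage and experiment cannot be told apart in this comparison.

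**Figure D1:**
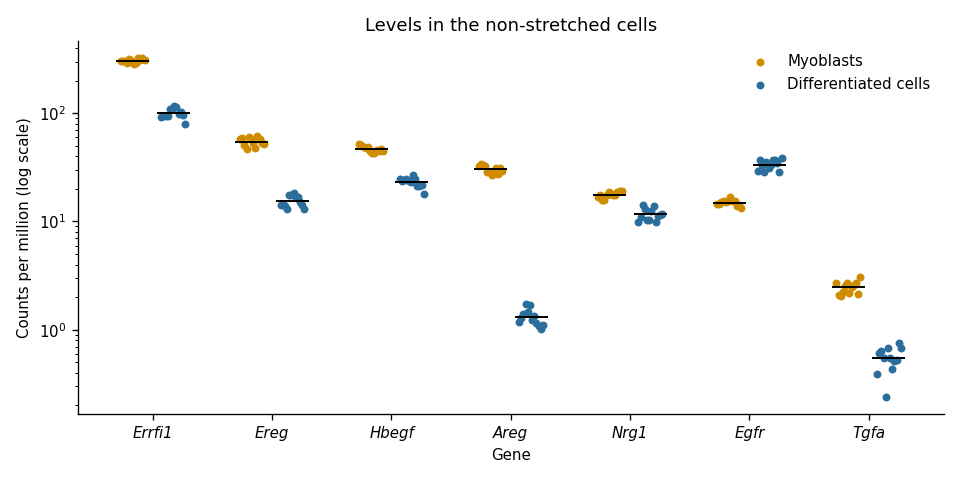
Level of each member in the non-stretched cells, in CPM on a log scale. Each point is 1 library (12 per stage, the 3 time points together) and each line is the mean of a stage. Egfr is the gene whose differentiated libraries lie above the myoblast ones, and Areg shows the widest gap, from 30.3 to 1.31 CPM.

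In myoblasts stretched for 1 h, the 3 main ligand genes rose together by a modest amount. Areg, Ereg and Hbegf passed the test, and Tgfa, Nrg1, Egfr and Errfi1 did not. Areg had 32.7, 33.7, 33.3 and 32.3 CPM in the non-stretched libraries (replicates 7 to 10) and 43.7, 44.0, 45.4 and 43.7 CPM in the stretched ones. Its stretched libraries were thus all above the non-stretched ones, with little spread in either group, and the log2 fold change was 0.42 (SE 0.0300, edgeR adjusted p = 2.31e-05). Ereg had 57.7, 58.4, 51.3 and 46.7 CPM without stretch and 79.5, 80.9, 81.6 and 70.5 CPM with it. The lower values of the non-stretched group came from replicates 9 and 10, the groups did not overlap, and the log2 fold change was 0.54 (SE 0.0717, edgeR adjusted p = 0.00109). Hbegf had 52.3, 51.2, 49.1 and 47.6 CPM without stretch and 67.9, 63.8, 66.1 and 65.9 CPM with it. These groups did not overlap either (log2 fold change 0.39, SE 0.0358, edgeR adjusted p = 1.05e-04).

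The adjusted p-value alone was passed upwards by 1.67% of the 14938 genes tested at 1 h in myoblasts, and by 3 of the 7 members. With the fold limit, 0 members and 1.25% of the genes were called by edgeR, 6 members had an unadjusted p under 0.05, and DESeq2 called 0 members. The share of all genes at the unadjusted p is not given, so this count has no background. Nrg1 was the fourth member whose groups did not overlap (15.9 to 17.5 CPM against 17.9 to 19.6 CPM), as 5.32% of the genes did with stretched libraries higher, and its log2 fold change was 0.17 (edgeR adjusted p = 0.0699, and 0.0476 with the experiment as a covariate). Tgfa, a low gene with 130 to 196 counts per library, differed by 0.29 (edgeR adjusted p = 0.192). The receptor gene Egfr showed no difference beyond its spread, at 14.9 ± 0.517 CPM and 14.9 ± 1.86 CPM. Errfi1 had 301 ± 7.91 CPM and 326 ± 16 CPM, which differed by 0.11 on the log2 scale (edgeR adjusted p = 0.137). The median log2 fold change was 0.29 over the members and 0.00242 over all genes tested. Ereg lay close to the fold limit, and it passed the limit when non-stretched replicate 7, non-stretched replicate 8 or stretched replicate 10 was left out. The summed differentiation markers were 9.43 to 15.9 CPM in the non-stretched and 7.73 to 9.26 CPM in the stretched myoblasts at 1 h, and their part in these results was not tested.

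**Figure D2:**
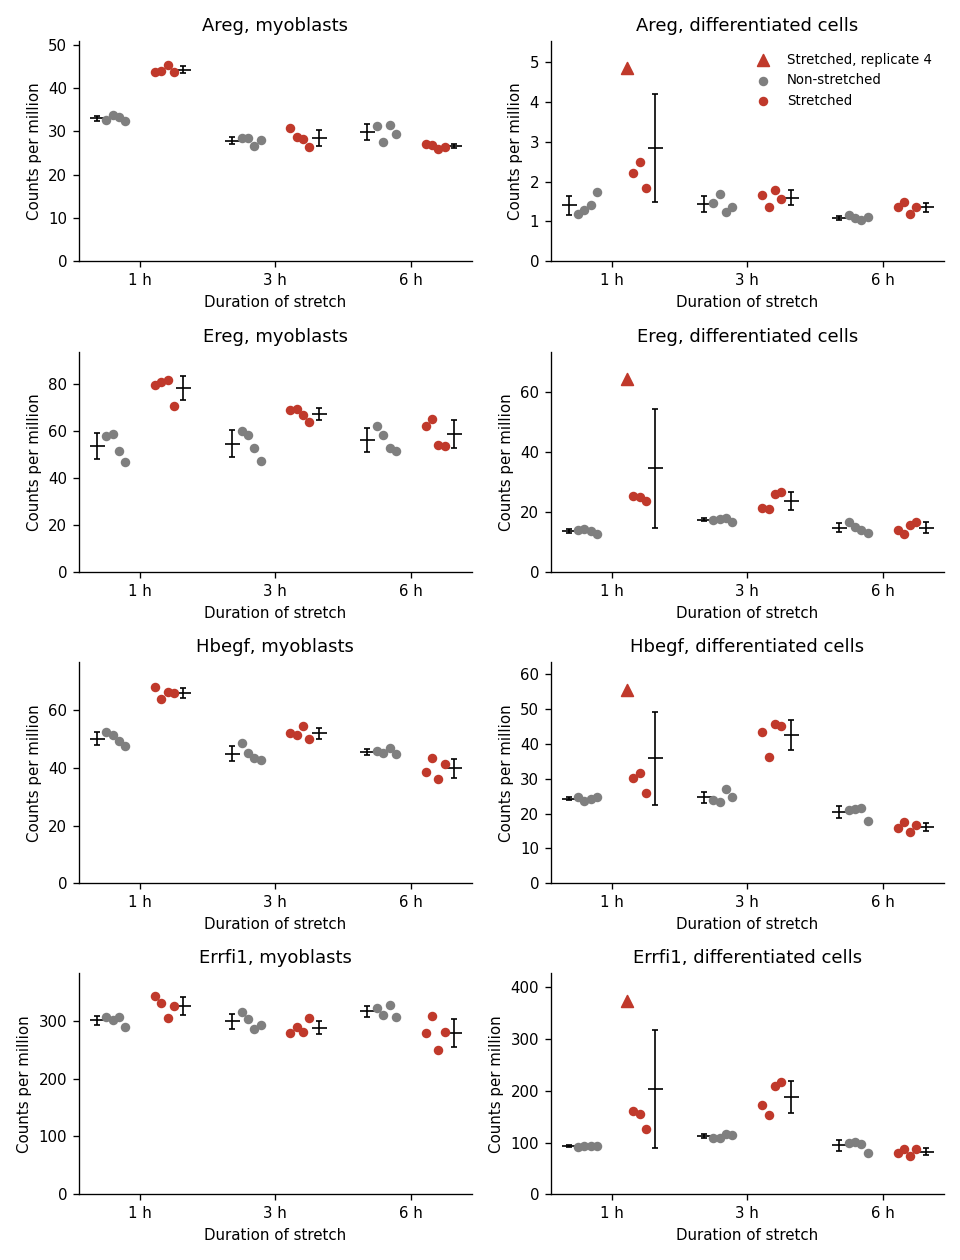
Level of Areg, Ereg, Hbegf and Errfi1 in each library, in CPM (vertical axis from 0), by stage and time. Grey points are non-stretched and red points stretched libraries, black bars are mean ± SD of 4 libraries, and the triangle is replicate 4 of stretched differentiated cells at 1 h. The myoblast ligands are separated at 1 h, and Ereg, Hbegf and Errfi1 in differentiated cells at both 1 h and 3 h.

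At 3 h in myoblasts, Ereg and Hbegf were still higher in stretched cells and Areg did not pass the test. Ereg had 69.0, 69.4, 66.5 and 63.9 CPM with stretch against 60.1, 58.1, 52.6 and 47.4 CPM without it, groups that did not overlap (log2 fold change 0.29, SE 0.0554, edgeR adjusted p = 0.00149). Hbegf had 50.1 to 54.5 CPM against 42.5 to 48.4 CPM, again without overlap (0.20, SE 0.0376, edgeR adjusted p = 0.00125). Areg had overlapping groups of 26.3 to 30.7 CPM and 26.7 to 28.5 CPM (0.02, edgeR adjusted p = 0.779). Tgfa fell, with every stretched library (1.72 to 2.11 CPM) below every non-stretched one (2.18 to 2.71 CPM) and a log2 fold change of -0.40 (SE 0.110, edgeR adjusted p = 0.0142). Nrg1 (-0.02), Egfr (-0.11) and Errfi1 (-0.06) did not pass. The Egfr groups did not overlap either, with 14.3 to 15.03 CPM in stretched and 15.09 to 16.9 CPM in non-stretched libraries. Errfi1 passed when stretched replicate 10 was left out (-0.096, edgeR adjusted p = 0.0312). The adjusted p-value alone was passed by 31.9% of the 14813 genes tested at 3 h, and by 3 of the 7 members. With the fold limit, 0 members and 1.71% of genes were called by edgeR, 4 members had an unadjusted p under 0.05, and DESeq2 called 0 members. Shares of all genes at the unadjusted p, or with groups that do not overlap, are not given for 3 h. The summed differentiation markers were 8.50 to 10.497 CPM with stretch and 9.42 to 14.9 CPM without it at this time, and their part in these values was not tested.

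By 6 h the direction had turned for Areg and Hbegf. Areg had 27.2, 26.8, 26.0 and 26.4 CPM in stretched and 31.3, 27.6, 31.5 and 29.4 CPM in non-stretched myoblasts, without overlap, and fell by 0.15 on the log2 scale (SE 0.0424, edgeR adjusted p = 0.0196). Hbegf fell by 0.18 (SE 0.0476, edgeR adjusted p = 0.0168), with 35.9 to 43.2 CPM below 44.6 to 46.9 CPM. Errfi1 fell by 0.16 (SE 0.0499, edgeR adjusted p = 0.0315), although its groups overlapped, because stretched replicate 8 had 308 CPM and the lowest non-stretched library 307 CPM. These 3 falls are small and rest on few libraries. The adjusted p-value reached 0.0662 for Areg (without non-stretched replicate 7; also lost without non-stretched or stretched replicate 9), 0.0515 for Hbegf (without non-stretched replicate 9) and 0.0857 for Errfi1 (without non-stretched replicate 9; also lost without non-stretched replicates 7 or 8 and stretched replicates 9 or 10). Tgfa moved the other way, with 4.19, 3.23, 3.93 and 3.22 CPM in stretched and 2.61, 2.68, 2.12 and 3.07 CPM in non-stretched cells (log2 fold change 0.50, SE 0.130, edgeR adjusted p = 0.0157). Its groups did not overlap, and it passed the fold limit when non-stretched replicate 10 was left out. Ereg (0.08), Nrg1 (0.16, edgeR adjusted p = 0.0508) and Egfr (-0.17, edgeR adjusted p = 0.105) did not pass. Nrg1 passed without stretched replicate 8, its lowest stretched library (0.21, edgeR adjusted p = 0.00415), and with the experiment as a covariate (edgeR adjusted p = 0.0407). At this time 27.2% of the 14938 genes tested passed the adjusted p-value alone, against 4 of 7 members. With the fold limit, 2.17% of genes and 0 members were called by edgeR, and DESeq2 called 0 members. An unadjusted p under 0.05 was found for 6 members. Neither for this count nor for groups without overlap is a share of all genes given at 6 h. The undifferentiated marker Myf5 rose at 6 h (0.40, edgeR adjusted p = 0.00108) and Pax7 fell (-0.23, edgeR adjusted p = 0.00587). The 2 summed to 81.6 to 90.7 CPM in stretched and 73.2 to 80.2 CPM in non-stretched myoblasts, and the summed differentiation markers were 6.66 to 7.81 CPM and 7.17 to 8.35 CPM. The part of these markers in the members' values was not tested.

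The change of the stretch effect over time was tested directly, as the interaction of stretch and time in 1 model of the 24 myoblast libraries. Between 1 h and 6 h the effect decreased for Areg (difference of log2 fold changes -0.58, SE 0.0540, edgeR adjusted p = 5.97e-08), Hbegf (-0.57, SE 0.0615, edgeR adjusted p = 4.25e-07), Ereg (-0.46, SE 0.111, edgeR adjusted p = 0.00379) and Errfi1 (-0.28, SE 0.0637, edgeR adjusted p = 0.00272). These are 4 of 7 members, where 21.1% of the 15684 genes tested passed. Between 1 h and 3 h it decreased for Areg (-0.41, edgeR adjusted p = 1.44e-05), Tgfa (-0.69, edgeR adjusted p = 0.00944) and Hbegf (-0.20, edgeR adjusted p = 0.0377), beside 10.9% of genes. With the experiment as a covariate, Ereg (-0.26, edgeR adjusted p = 0.00789) and Errfi1 (-0.18, edgeR adjusted p = 0.0418) passed there too, in a fit that passed 1908 of 15684 genes. The tests of 3 h and of 6 h against 1 h share the libraries of 1 h. The result for Hbegf between 1 h and 3 h was lost when any of 10 libraries was left out in turn (5 of the 8 of each time, the controls included), with adjusted p-values up to 0.107 without non-stretched replicate 7 of 3 h.

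In differentiated cells stretched for 1 h, Ereg, Errfi1, Areg and Hbegf had higher levels in all 4 stretched libraries than in any non-stretched one, but with replicate 4 included none passed the test of the 2 groups. Ereg had 14.1, 14.6, 13.8 and 12.95 CPM in the non-stretched replicates 7 to 10, and 64.4 CPM in stretched replicate 4 against 25.5, 25.1 and 23.8 CPM in stretched replicates 7 to 9. Replicate 4 was thus far above the rest of its group, and the log2 fold change was 1.32 with an SE of 0.299 (edgeR adjusted p = 0.0992). Errfi1 had 91.5, 94.1, 93.8 and 93.4 CPM without stretch, 373 CPM in stretched replicate 4 and 161, 154 and 125 CPM in the other 3 (1.13, SE 0.291, edgeR adjusted p = 0.153). Its non-stretched libraries were nearly level, and its stretched ones differed widely. Areg, at its low level in this stage (66 to 255 counts per library), had 1.18, 1.28, 1.41 and 1.74 CPM without stretch, 4.83 CPM in replicate 4 and 2.21, 2.48 and 1.83 CPM in the other 3 (1.01, SE 0.287, edgeR adjusted p = 0.212). Hbegf had 23.7 to 24.7 CPM without stretch, 55.6 CPM in replicate 4 and 30.2, 31.8 and 25.9 CPM in the other 3 (0.56, SE 0.199, edgeR adjusted p = 0.366).

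Without replicate 4, the differences were smaller and the test was passed by a pair of members. Ereg rose by 0.84 on the log2 scale (edgeR adjusted p = 7.42e-05) and Errfi1 by 0.65 (edgeR adjusted p = 0.00351), both past the fold limit, while Areg (0.63, edgeR adjusted p = 0.155) and Hbegf (0.27, edgeR adjusted p = 0.113) did not pass. That fit called 56 of the 15734 genes tested. With the experiment as a covariate, where replicate 4 has a term of its own, the same 2 members were called (Ereg 0.82, edgeR adjusted p = 5.92e-06; Errfi1 0.63, edgeR adjusted p = 0.00109), beside 30 genes up and 36 down over all. Within the experiment of replicates 7 and 8 (2 libraries against 2), the log2 difference was 0.81 for Ereg, 0.76 for Errfi1, 0.92 for Areg and 0.36 for Hbegf. Within that of replicates 9 and 10, which has 1 stretched library at this time, it was 0.83 for Ereg, 0.42 for Errfi1, 0.22 for Areg and 0.09 for Hbegf. The difference of Ereg was thus about as large in both experiments, and those of Areg and Hbegf were not. Tgfa (-0.17), Nrg1 (0.29) and Egfr (0.06) had differences within their spread, of which Nrg1 came down to 0.06 without replicate 4. With all 8 libraries, 0 members and 0.270% of the 15538 genes tested were called by edgeR, and 0 members and 0.663% of genes passed the adjusted p-value alone. An unadjusted p under 0.05 was found for 4 members, for which no share of all genes is given. DESeq2 called 2 members (Areg and Ereg), beside 44 genes up and 54 down over all. The 4 members that did not overlap compare with 2.46% of genes whose stretched libraries were all higher. The median log2 fold change was 0.56 over the members and -1.67e-04 over all genes, and without replicate 4 it was 0.27 and 0.00161.

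**Figure D3:**
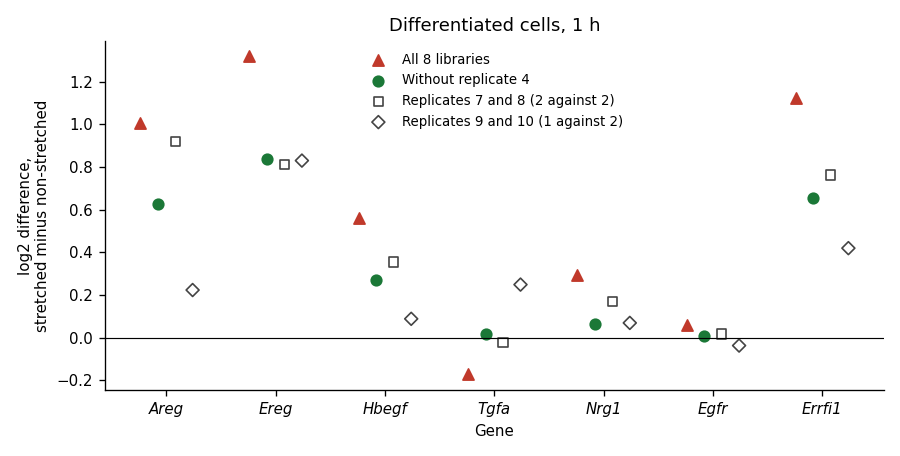
Log2 difference between stretched and non-stretched differentiated cells at 1 h for each member. Red triangles are edgeR fits of all 8 libraries, green circles are fits without stretched replicate 4, and open symbols are differences of means within an experiment (squares, replicates 7 and 8; diamonds, replicates 9 and 10). Ereg and Errfi1 are at 0.42 or more by each of the 4, and Areg ranges from 0.22 to 1.01.

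At 3 h, Hbegf and Errfi1 were the members that rose most in stretched differentiated cells. Hbegf had 23.9, 23.2, 26.9 and 24.6 CPM in the non-stretched libraries and 43.3, 36.2, 45.8 and 45.1 CPM in the stretched ones, all far above. Its log2 fold change was 0.79 (SE 0.0735, edgeR adjusted p = 1.46e-04), a 1.73-fold rise. Errfi1 had 109, 109, 117 and 115 CPM without stretch and 172, 152, 208 and 218 CPM with it. The groups were well apart, with replicates 9 and 10 highest, and it rose 1.67-fold (log2 fold change 0.74, SE 0.0950, edgeR adjusted p = 6.36e-04). These 2 of 7 members were called, where 0.890% of the 15513 genes tested were called upwards.

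Ereg was also higher at 3 h, with 21.5, 21.2, 26.0 and 26.9 CPM against 17.5, 17.7, 18.3 and 16.96 CPM and no overlap (0.44, SE 0.0768, edgeR adjusted p = 0.00264). In a fit of all 24 differentiated libraries, replicate 4 included, it did not pass (edgeR adjusted p = 0.164). Nrg1 had 15.1, 12.3, 20.7 and 22 CPM against 10.3, 10.3, 12.4 and 14.05 CPM. Its groups overlapped, since stretched replicate 8 lay below the highest non-stretched library, and its log2 fold change of 0.57 (SE 0.172, edgeR adjusted p = 0.0364) was just under the fold limit. Its adjusted p-value was above 0.05 when any of 5 libraries was left out (non-stretched replicates 7, 8 or 9 and stretched replicates 9 or 10), up to 0.0980 without stretched replicate 10. It was called when non-stretched replicate 10, stretched replicate 7 or stretched replicate 8 was left out. Areg (0.16, edgeR adjusted p = 0.432), Tgfa (edgeR adjusted p = 0.618, with 13 to 44 counts per library) and Egfr (0.12, edgeR adjusted p = 0.452) did not pass. Upwards, 4 of 7 members and 10.8% of genes passed the adjusted p-value alone. How many of all genes had groups without overlap is not given for this time. The median log2 fold change was 0.44 over the members and -0.00125 over all genes tested. The summed differentiation markers overlapped, at 10597 to 11649 CPM with stretch and 11005 to 12145 CPM without it.

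**Figure D4:**
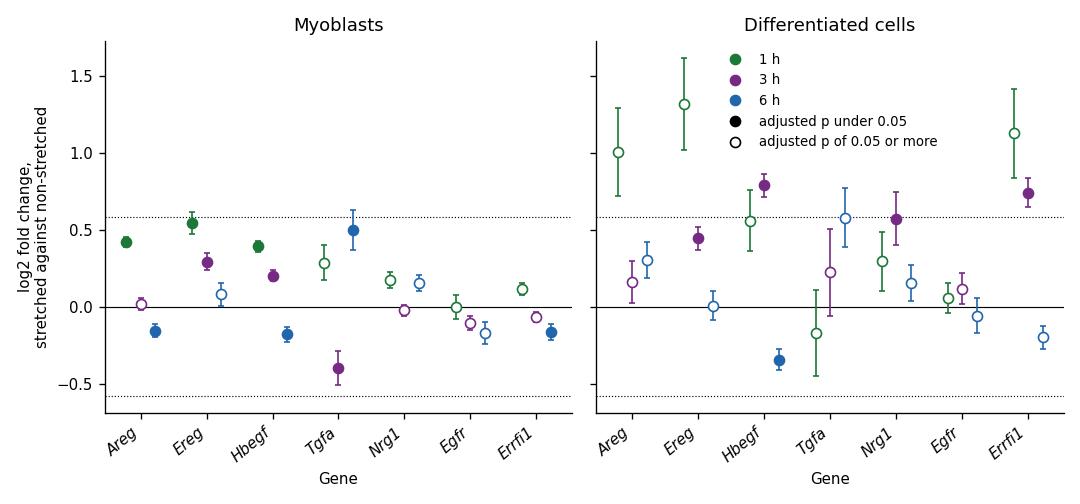
Log2 fold change of stretched against non-stretched cells for each member, stage and time (edgeR, bars are ± SE). Filled points have an adjusted p-value under 0.05, and dotted lines mark the fold limit of 0.58 up and down. In differentiated cells, the filled points past the limit are Hbegf (0.79) and Errfi1 (0.74) at 3 h, and no filled point of the myoblasts passes it.

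At 6 h, 0 of these members passed upwards. Hbegf was lower in stretched cells, with 15.9, 17.5, 14.7 and 16.6 CPM against 21.1, 21.2, 21.8 and 17.96 CPM. The groups did not overlap, and it fell by 0.34 on the log2 scale (SE 0.0691, edgeR adjusted p = 0.00641), a pass that was lost in the fit of all 24 differentiated libraries (edgeR adjusted p = 0.114). Errfi1 had 74.7 to 87.6 CPM with stretch and 79.8 to 102 CPM without it (-0.20, edgeR adjusted p = 0.0855), and passed when non-stretched replicate 10 was left out (-0.27, edgeR adjusted p = 0.0139). Ereg did not pass (0.01, edgeR adjusted p = 0.959). Tgfa had 0.908, 0.712, 1.03 and 1.09 CPM against 0.518, 0.528, 0.758 and 0.685 CPM, groups that overlapped at 1 library, with 29 to 66 counts per library. Its log2 fold change of 0.58 (SE 0.191, edgeR adjusted p = 0.0523) was close to both limits, and it was called when non-stretched replicate 9 or stretched replicate 8 was left out and with the experiment as a covariate (0.59, edgeR adjusted p = 0.0171). Areg (0.30, edgeR adjusted p = 0.0932) had non-overlapping groups of 1.19 to 1.48 CPM and 1.03 to 1.16 CPM but did not pass, and Nrg1 (0.16) and Egfr (-0.06) did not pass. By edgeR 0 members and 2.04% of the 15433 genes tested were called, 4 members had an unadjusted p under 0.05, and DESeq2 called 0 members. For this time no share of all genes is given at the unadjusted p or for groups without overlap. The adjusted p-value alone was passed by 1 member and 22.3% of genes. Myf5 rose at this time (0.51, edgeR adjusted p = 5.61e-04). Summed with Pax7 it gave 59.3 to 66.0 CPM in stretched and 52.1 to 59.9 CPM in non-stretched cells. The summed differentiation markers were 9945 to 10877 CPM in stretched and 10862 to 11524 CPM in non-stretched cells. The part of these markers in the members' values was not tested.

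The interaction of stretch and time in the 24 differentiated libraries was past the threshold between 1 h and 6 h for Errfi1 (-1.32, SE 0.296, edgeR adjusted p = 0.00519), Ereg (-1.31, SE 0.305, edgeR adjusted p = 0.00680) and Hbegf (-0.90, SE 0.211, edgeR adjusted p = 0.00691), beside 11.9% of the 16266 genes tested. Without replicate 4 the differences were smaller and still passed (Errfi1 -0.85, edgeR adjusted p = 2.33e-04; Ereg -0.83, 1.09e-04; Hbegf -0.61, 6.67e-04). Between 1 h and 3 h, 0 members and 5.15% of genes passed by edgeR, and 0 members by DESeq2. An unadjusted p under 0.05 was found for 2 members, with no share of all genes given. With the experiment as a covariate 3 members passed, Hbegf (0.51, edgeR adjusted p = 0.00344), Ereg (-0.40, edgeR adjusted p = 0.0324) and Nrg1 (0.43, edgeR adjusted p = 0.0388). More genes passed in that fit, 1746 of 16266 against 838 without the covariate. Without replicate 4, the effect on Hbegf was larger at 3 h than at 1 h (0.52, edgeR adjusted p = 0.00390) and that on Ereg smaller (-0.40, edgeR adjusted p = 0.0454). Errfi1 did not differ beyond its error between these times without replicate 4 (0.08, edgeR adjusted p = 0.803).

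The effect of stretch was then compared between the stages at each time, in 1 model of 16 libraries. At 3 h it was larger in differentiated cells than in myoblasts for Errfi1 (difference of log2 fold changes 0.80, SE 0.108, edgeR adjusted p = 8.53e-04) and Hbegf (0.58, SE 0.0889, edgeR adjusted p = 0.00234), where 1.79% of 16252 genes passed. With the experiment as a covariate, Nrg1 also passed at 3 h (0.58, edgeR adjusted p = 0.00130), in a fit that passed 527 of 16252 genes. At 6 h it was larger for Areg (0.45, SE 0.102, edgeR adjusted p = 0.0178), which was lower with stretch in myoblasts and did not pass in differentiated cells, beside 5.18% of 16254 genes. At 1 h, 0 members and 0.00% of 16299 genes passed by edgeR, and DESeq2 gave 0 members. An unadjusted p under 0.05 was found for 2 members, with no share of all genes given. Without replicate 4, the effect on Errfi1 at 1 h was larger in differentiated cells (0.54, edgeR adjusted p = 0.0244, and 0.00632 with the experiment as a covariate and all libraries), and that on Ereg (0.29, edgeR adjusted p = 0.688) did not pass. The fit with the covariate passed 51 of 16299 genes. The stages also differ in experiment, so a difference of stretch effects between stages and one between experiments cannot be told apart.

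The rest of the pathway was taken from a list of genes that are not members. Of its 36 genes (6 ligands, 3 receptors, 4 genes of ligand release, 10 attenuators and 13 adaptors and kinases of the ERK cascade), 32 or 33 were tested in each comparison. None was called by edgeR in any of the 6 comparisons, where 4 to 15 of them had an unadjusted p under 0.05. No share of all genes is given at that unadjusted p. By adjusted p-value alone, 1 rose and 1 fell of 32 in myoblasts at 1 h, where 5.92% of all genes passed in either direction. At 3 h 5 rose and 3 fell of 32 (31.9% of all genes), and at 6 h 4 rose and 1 fell of 33 (27.2%). In differentiated cells 1 rose and 0 fell at 1 h (0.663%, and the same counts without replicate 4), 3 rose and 7 fell at 3 h (22.2%), and 2 rose and 1 fell at 6 h (22.3%), of 33 each time.

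Among the receptors, Erbb3 fell at 3 h in both stages and Erbb2 in differentiated cells. Erbb3, which encodes a receptor for neuregulins that lacks kinase activity of its own, dropped by 0.52 in myoblasts (SE 0.0462, edgeR adjusted p = 7.54e-06) and by 0.24 in differentiated cells (SE 0.0571, edgeR adjusted p = 0.0133). Erbb2, its usual partner, fell by 0.17 in differentiated cells (edgeR adjusted p = 0.0240) and did not pass in myoblasts (-0.07, edgeR adjusted p = 0.0763). Of the other ligands, Btc fell by 0.30 in myoblasts at 6 h (edgeR adjusted p = 0.00540). Egf and Nrg4 passed in none of the 6 comparisons, nor did Epgn in the 4 where it was tested, and Nrg2 and Nrg3 were too low to test, with at most 6 counts in a library. The genes Rnf41, Gab1, Lrig1 and Mapk3 were picked once their values had been seen, and others that passed, some of them downwards, are not named. Rnf41, an E3 ubiquitin ligase that acts on ERBB3, rose in myoblasts at 3 h (0.17) and 6 h (0.33, edgeR adjusted p = 5.02e-05) and in differentiated cells at 3 h (0.12) and 6 h (0.11). A link between Rnf41 and the level of Erbb3 was not tested. Gab1, a docking protein, rose at 1 h in both myoblasts (0.21, edgeR adjusted p = 0.0133) and differentiated cells (0.27, edgeR adjusted p = 0.0277; 0.29 and 0.00640 without replicate 4). The attenuator Lrig1 rose in differentiated cells at 3 h (0.24, edgeR adjusted p = 0.0100), and the kinase gene Mapk3 fell there at 3 h (-0.14) and 6 h (-0.17). The 10 attenuators moved in both directions, as 3 rose and 1 fell at 3 h in each stage. In myoblasts 1 fell and 0 rose at 1 h, and 2 rose and 0 fell at 6 h. In differentiated cells 1 rose and 0 fell at 6 h, and 0 passed at 1 h. The median log2 fold change over the pathway genes tested was between -0.0405 and 0.0345 in the 6 comparisons.

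The members did not vary as 1 block across libraries. Over the 24 differentiated libraries, the Pearson correlation of log2 CPM was 0.943 between Hbegf and Errfi1, 0.938 between Ereg and Errfi1 and 0.850 between Areg and Ereg, and it was -0.589 between Hbegf and Tgfa. Without replicate 4 these 4 values were 0.945, 0.903, 0.662 and -0.481, so that the one between Areg and Ereg rested in part on this library. In the 24 myoblast libraries it was 0.873 between Areg and Hbegf, 0.734 between Ereg and Hbegf and 0.708 between Tgfa and Nrg1. The libraries of such a correlation share times, treatments and experiments, so these values are a description. Of the 11870 tested genes that averaged 100 counts or more in differentiated cells, those most like Hbegf were Id2 (r = 0.959), Foxo1 (0.952) and Plau (0.950), and those most like Errfi1 were Plau (0.961), Bhlhe40 (0.953) and Id2 (0.947). Without replicate 4 these values were 0.949, 0.965 and 0.938 for Hbegf and 0.952, 0.927 and 0.932 for Errfi1. Id2 and Bhlhe40 encode helix-loop-helix transcription regulators, Foxo1 a forkhead transcription factor and Plau the urokinase plasminogen activator.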

How the data were processed

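RNA-seq libraries were prepared by the study's authors with a stranded mRNA method. The authors aligned the reads to mm10 with STAR, quantified them with Salmon and deposited, for each stage, a table of raw counts per gene symbol without normalization. Per the labels the molecule is nuclear RNA, while the study's methods describe RNA of whole cells. All 48 columns were used (0 left out). Groups were read from the labels. The title of replicate 9 among the 1 h stretched myoblasts carries an odd experiment code, read as that of replicate 10.

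Low counts were removed with filterByExpr, and libraries were scaled with TMM and tested by quasi-likelihood in edgeR 4.0.16 (R 4.3.3, limma 3.58.1), two-sided and adjusted by Benjamini-Hochberg over all genes tested. "Called" means an adjusted p-value below 0.05 with a log2 difference of 0.58 or more up or down, and "passed", "rose" or "fell" the adjusted p-value alone. The SE is the fold change divided by the root of the F statistic. CPM use TMM factors of all 48 libraries, and log2 CPM a prior count of 1. In counts simulated for differentiated cells at 3 h, the test recovered 2-fold changes seeded in well-counted genes. Smaller changes, low counts, differences between experiments and outlying libraries were not simulated. Alternatives were DESeq2 1.42.0, RLE normalization, no filter or a stricter one (10 counts or more in each library), a fit of all 24 libraries of a stage, the experiment as a covariate, a replicate block, no fold limit and leaving out each library or experiment. No 2 libraries of a group agreed within sampling noise (72 pairs). The text names the 7 members, the other ligands and receptors, pathway genes called in a comparison (in the stage comparison alone, with 1 not reported here), the 3 genes most correlated with each member called, and the markers. Rnf41, Gab1, Lrig1 and Mapk3 were added to these once their values had been seen. The members and lists were chosen with earlier results of these data known. Splicing, protein and inhibitor data were not analysed here.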

Additional observations from a re-analysis of the deposited data

Results flagged for a closer look

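In 7 of the 84 groups of 4 libraries and members, 1 library lay far from the other 3, where chance gives about 1 in 20 groups. In stretched differentiated cells at 1 h, replicate 4 was high for Ereg (64.4 CPM) and Errfi1 (373 CPM). Hbegf was low in non-stretched differentiated replicate 10 at 6 h (17.96 CPM). In myoblasts, Tgfa was high in stretched replicate 10 at 1 h (3.17 CPM), Nrg1 was low in non-stretched replicate 7 (17.7 CPM) and in stretched replicate 8 (18.5 CPM) at 6 h, and Egfr was low in stretched replicate 7 at 1 h (12.1 CPM).

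The effect of stretch differed between times or stages, by an edgeR interaction term, in 13 cases. In myoblasts the difference of log2 fold changes from 1 h to 3 h was -0.41 for Areg, -0.20 for Hbegf and -0.69 for Tgfa, and from 1 h to 6 h it was -0.58 for Areg, -0.46 for Ereg, -0.57 for Hbegf and -0.28 for Errfi1. In differentiated cells it was -1.31 for Ereg, -0.90 for Hbegf and -1.32 for Errfi1 from 1 h to 6 h. Between differentiated cells and myoblasts it was 0.58 for Hbegf and 0.80 for Errfi1 at 3 h and 0.45 for Areg at 6 h. The causes of these differences were not tested.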

How the results depend on the processing

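Hbegf and Errfi1 were called at 3 h in differentiated cells in every alternative run, and the 7 members differed between the stages in each, except that Nrg1 missed the fold limit (-0.47) without the experiment of differentiated replicates 7 and 8. Without the fold limit, the members past the adjusted p-value were 3 in myoblasts at 1 h, 3 at 3 h and 4 at 6 h, and, after differentiation, 4 at 3 h and 1 at 6 h. In differentiated cells at 1 h, where 0 were called, DESeq2 called 2, no filter 1, a fit of all 24 libraries 3, the experiment as a covariate 2 and the replicate block 2. These fits also called more genes over all. The main fit called 14 up and 28 down, DESeq2 44 and 54, and no filter 28 and 38. The fit of all 24 libraries called 59 and 67, the experiment as a covariate 30 and 36, and the block 29 and 27. At 6 h in differentiated cells, the experiment as a covariate and the replicate block each called 1 (Tgfa). Over all genes they called 89 up and 246 down, and 73 up and 200 down. For the change from 1 h to 3 h, the experiment as a covariate gave 5 members in myoblasts and 3 in differentiated cells, where the replicate block gave 2. Over all genes these fits passed 1908, 1746 and 1560, in that order. For the stages at 1 h the experiment as a covariate gave 1 (Errfi1), where 51 genes passed. With 1 library left out, the counts ranged from 0 to 1 in myoblasts at 1 h and at 6 h, from 0 to 2 in differentiated cells at 1 h, from 0 to 1 at 6 h, from 0 to 2 for the change from 1 h to 3 h in differentiated cells and from 0 to 1 for the stages at 1 h. At 3 h in differentiated cells, the fit of all 24 libraries, which includes replicate 4, gave Ereg an adjusted p of 0.164, and at 6 h Hbegf 0.114. The cause was not tested. Same-numbered libraries deviated together only weakly (23 pairs, r from -0.0441 to 0.153, median 0.0485, 6 over 0.1). The replicate block is therefore given as an alternative and was not treated as a pairing. This check does not cover the experiment, which the main tests of stretch leave out. With the experiment as a covariate more genes passed in every stretch comparison, such as 292 against 103 in differentiated cells at 1 h and 4361 against 3443 at 3 h.

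The sign turned for the following differences, which did not pass. For Egfr in myoblasts at 1 h the log2 difference was -0.00410 with no filter, -5.52e-04 with all 24 libraries, -7.02e-04 with the experiment and -0.00766 with the block. With the experiment and with the block, in that order, it was 0.0746 and 0.0170 for Tgfa and -0.0108 and -0.0431 for Egfr in differentiated cells at 1 h, 0.0808 and 0.0742 for the change of Errfi1 from 1 h to 3 h, and 0.0157 and 0.0176 for that of Nrg1 from 1 h to 6 h. With the experiment, the stage differences at 1 h were -0.149 for Hbegf, -0.0541 for Nrg1 and -0.0141 for Egfr. For Nrg1 between stages at 6 h it was 0.00754 with DESeq2, 0.00648 with RLE and 0.0249 with no filter. With 1 library left out, ranges that crossed 0 were, for stretch, -0.0453 to 0.0845 (Egfr, myoblasts, 1 h), -0.0181 to 0.0481 (Areg, myoblasts, 3 h), -0.409 to 0.0169 (Tgfa, differentiated, 1 h), -0.0599 to 0.0714 (Ereg, differentiated, 6 h) and -0.166 to 0.00224 (Egfr, differentiated, 6 h). For the change over time they were -0.0448 to 0.0369 (Nrg1, myoblasts, 6 h), -0.0341 to 0.149 (Egfr) and -0.564 to 0.0837 (Errfi1) in differentiated cells at 3 h, and -0.266 to 0.0927 (Nrg1) at 6 h. For the stages they were -0.130 to 0.288 (Hbegf), -0.118 to 0.221 (Nrg1) and -0.0262 to 0.127 (Egfr) at 1 h, and -0.00407 to 0.191 (Tgfa), -0.123 to 0.0853 (Nrg1) and -0.109 to 0.0132 (Errfi1) at 6 h. Depth limits Tgfa and Areg in differentiated cells, with as few as 13 and 64 counts in a library.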
